A study of Mus musculus with 9 samples.

Results

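The tumor suppressor p53 (gene Trp53), its inhibitors Mdm2 and Mdm4, and 7 genes known to be activated directly by p53 (Ccng1, Sesn2, Zmat3, Eda2r, Phlda3, Trp53inp1 and Aen) were followed in mouse leukemia cells. The 10 genes were taken by name from a table of 55536 genes, and all 10 were found in it. The cells came from MLL-AF9-induced AML, a leukemia model in which a retrovirus carrying the MLL-AF9 fusion and GFP is put into c-kit+ bone marrow cells, on the C57BL/6J strain. All 9 libraries therefore carried the fusion and GFP, and the genotype labels give control-GFP overexpression for the wild-type cells and IRF7-/--GFP overexpression for the others. GFP+ leukemia cells were given without irradiation to C57BL/6J recipients aged 6 to 8 weeks, and cells were sorted from bone marrow on day 18. There were 3 groups of 3 libraries. Wild-type leukemias gave AML-WT-c-kit-, named WT c-kit- from here on, together with AML-WT-c-kit+, named WT c-kit+, and the third group was AML-IRF7-/--c-kit+, or IRF7-/- c-kit+. c-kit, the stem cell factor receptor, marks the part of this leukemia that is richer in leukemia-initiating cells. IRF7 is a transcription factor of the interferon response, and in the IRF7-/- mice a PGK-beta-geo cassette replaced exons 2 to 3 of the gene. How many primary leukemias stood behind each genotype, and whether the 3 libraries of a group came from separate mice, is not given in the sources used here, so p-values measure only the spread between these libraries.

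p53 is a transcription factor that DNA damage, oncogene activity and other stresses stabilize. Mdm2 marks it for destruction and Mdm4 blocks its activity, and since p53 activates Mdm2 the pair forms a feedback loop in which Mdm2 RNA is often read as one output of p53. The targets stop the cell cycle, repair DNA, restrain growth signalling or lead to cell death. Most acute myeloid leukemias keep the gene intact, and p53 protein is controlled largely after translation, so the level of its RNA does not give its activity.

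The values are TPM, a gene's share of the transcripts in its library after correction for gene length. Fold changes were computed on log2(TPM + 1) with limma, and a gene passed the test at a Benjamini-Hochberg adjusted p under 0.05 over all genes tested. Genes under 1 TPM in more than 3 of the 6 libraries compared were not tested. Exact permutation tests of 3 libraries against 3 cannot go below p = 0.1.

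Several measures of the whole libraries moved with the groups, and their part in the results below was not tested. Irf7 lay at 22.3 to 32.3 TPM in WT c-kit-, 3.36 to 5.31 TPM in WT c-kit+ and 5.97 to 12.8 TPM in the third group, above WT c-kit+. A value for the whole gene does not show exons 2 to 3 alone, and the study's own checks of IRF7 by qRT-PCR and Western blot are not analysed here. This group is therefore called the libraries labelled IRF7-/- c-kit+, and every direction drawn from it rests on the label. Kit, which encodes c-kit, lay at 0.52 to 3.03 TPM in WT c-kit- and at 50.7 to 58.5 TPM in WT c-kit+. In those labelled IRF7-/- c-kit+ it was 70.3 to 85.7 TPM, so the c-kit+ groups did not overlap in Kit either. The summed level of 20 myeloid maturation genes, many of them granule genes, was 19784 to 47413 TPM in WT c-kit-, 62788 to 119581 TPM in WT c-kit+ and 5186 to 6062 TPM in those labelled IRF7-/- c-kit+. This sum follows a few abundant genes. Between the WT groups the mean of S100a8 rose from 4414 to 24525 TPM and that of S100a9 from 7329 to 39669 TPM. That of Lyz2 fell from 9453 to 2431 TPM, and of the 20 genes 5 were higher and 6 lower. The top 10 genes by TPM made up 13.1% to 17.3% of the WT c-kit+ libraries and 9.39% to 10.3% of the others. This matters for TPM, in which a rise of a few abundant genes lowers all others. The summed level of 15 S phase genes was 1260 to 1416, 1610 to 1765 and 2220 to 2295 TPM in the same order. That of 15 interferon-stimulated genes was 246 to 309, 166 to 171 and 317 to 1105 TPM, and library 1 of the labelled group stood apart as the highest. Cd3e of T cells and Cdh5 of endothelial cells were at no more than 0.24 TPM in any library, while Cd79b, a B cell gene, lay at 25.8 to 37.1 TPM in all 9, and the hemoglobin gene Hba-a1 reached 6.68 TPM. Itgam, which encodes CD11b, was 193 to 307 TPM in the WT libraries and 118 to 138 TPM in those labelled IRF7-/- c-kit+. Of 12 markers of T or NK and of endothelial or stromal cells, the exceptions over 25 TPM in some library were Nkg7, Pecam1 and Lepr. The T and NK list summed to 0.91 to 3.15, 136 to 194 and 91.6 to 166 TPM in the 3 groups. In both c-kit+ groups nearly all of this was Nkg7, at 136 to 192 and 89.7 to 166 TPM. The other T and NK genes stayed at or below 1.27 TPM in every library. The endothelial and stromal list summed to 128 to 159, 59.6 to 70.1 and 124 to 157 TPM. Apart from Pecam1 and Lepr, its genes stayed at or below 1.6 TPM in every library. In bulk libraries, fewer cells of a type and less RNA per cell cannot be told apart.

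p53 binds DNA as a tetramer at pairs of a 10-base half-site, the p53 half-site decamer. Promoters in RefSeq (GRCm38.p6, from 250 bases before to 50 bases after the gene start, searched on both strands for this motif alone) were available for 8 of the 10 genes, and not for Trp53inp1 or Zmat3. The decamer was present in 4 of these 8, in 12 of 41 further p53 targets (29.3%) and in 2582 of all 27025 genes with a promoter entry (9.55%). The targets are known as genes that p53 binds, so this share is a description of the list. The 30 bases around each match follow for the 4 genes, with those of the promoters of Cdkn1a and Bax for comparison, since these 6 genes did not all change in the same direction. Each is written 5′ to 3′ on the gene's strand, with the decamer in capitals.
Trp53: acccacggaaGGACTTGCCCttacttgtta
Mdm2: agtcggatagGAACTTGCCTagcgaccatt
Ccng1: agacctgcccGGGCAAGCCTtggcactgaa
Aen: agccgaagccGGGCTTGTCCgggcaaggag
Cdkn1a, first match: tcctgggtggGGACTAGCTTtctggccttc
Cdkn1a, second match: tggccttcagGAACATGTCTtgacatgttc
Bax: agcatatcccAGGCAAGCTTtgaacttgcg
The Trp53 window is chr11:69580274-69580303 on the plus strand, and its decamer began 75 bases before the gene start. That of Mdm2 is chr10:117710925-117710954 on the minus strand, 186 bases before the start. The Ccng1 window is chr11:40755452-40755481 on the minus strand, 185 bases before the start, and that of Aen is chr7:78895927-78895956 on the plus strand, 121 bases before 1 of its 2 RefSeq starts. For Cdkn1a the windows are chr17:29090896-29090925 and chr17:29090918-29090947 on the plus strand, 73 and 51 bases before the start. The Bax window is chr7:45467080-45467109 on the minus strand, 201 bases before the start. A match is a stretch of letters, and binding was not measured.

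The genes lie apart in the genome (GRCm38, GENCODE M21). Trp53 (chr11:69580359-69591873, plus strand) and Ccng1 (chr11:40748552-40755311, minus strand) share a chromosome, as do Mdm4 (chr1:132959484-133030561, minus strand) and Phlda3 (chr1:135766119-135769136, plus strand). Sesn2 (chr4:132492032-132510501, minus strand) and Trp53inp1 (chr4:11156431-11174379, plus strand) are both on chromosome 4. Mdm2 (chr10:117688875-117710758, minus strand), Zmat3 (chr3:32334792-32366014, minus strand), Aen (chr7:78895854-78911209, plus strand) and Eda2r (chrX:97333840-97377216, minus strand) are alone on theirs. Mdm4 overlaps the pseudogene Gm29257 and Sesn2 overlaps Gm12981. Reads from overlapping genes cannot be told apart by strand with this library kit, which does not mark strand, and both neighbours stayed at or below 1.32 TPM.

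The regulators were abundant and the targets spread over a wide range of levels. In WT c-kit- the order by mean TPM was Mdm4, Trp53, Mdm2, Ccng1, Aen, Trp53inp1, Sesn2, Phlda3, Zmat3 and Eda2r. The neighbours Aen and Trp53inp1, and Phlda3 and Zmat3, overlapped there, and every other pair of neighbours was separate in all 3 libraries. In WT c-kit+ the order was the same, and the neighbours that overlapped were Ccng1 and Aen. In the libraries labelled IRF7-/- c-kit+ Trp53 came level with Mdm4, with overlapping values, Aen overlapped Ccng1, Zmat3 overlapped Phlda3, and Trp53inp1 dropped below Sesn2. Trp53inp1 had the widest range between group means, 2.43 on the log2 scale, and Mdm4 the narrowest of the tested genes, 0.18.

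**Figure D1:**
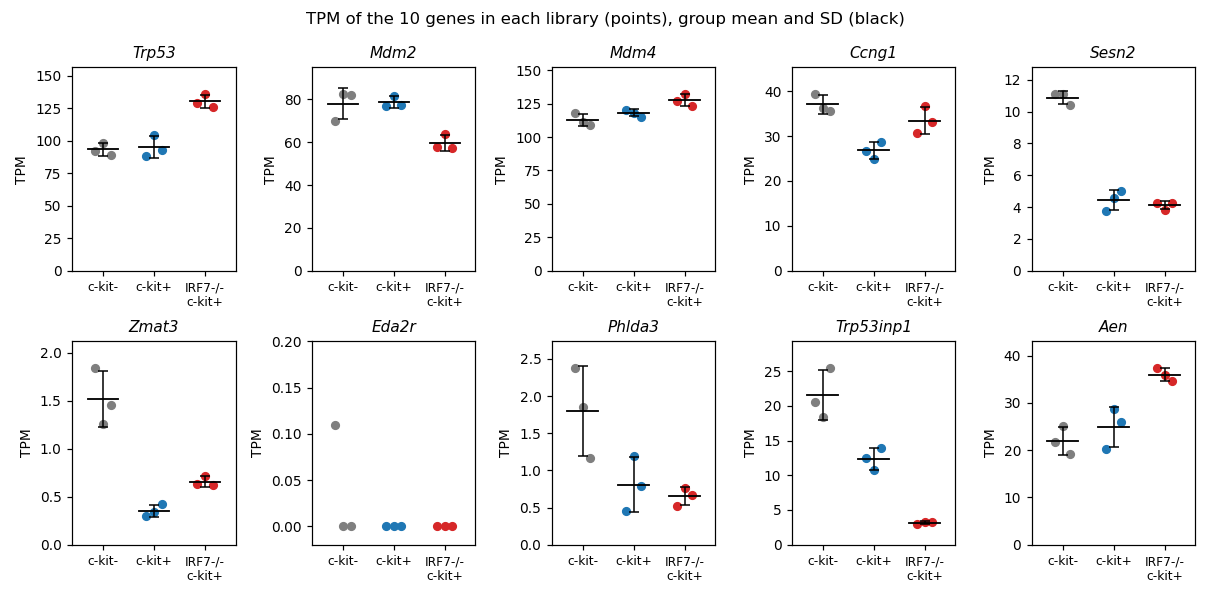
TPM (vertical axes, each starting near 0 and with its own scale) of the 10 genes in WT c-kit- (grey), WT c-kit+ (blue) and the libraries labelled IRF7-/- c-kit+ (red). Points are single libraries and black bars the mean and SD of 3 (none drawn for Eda2r). Trp53 is highest and Mdm2 and Trp53inp1 are lowest in the red group, while Sesn2 is high in the grey group alone.

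Trp53 RNA was abundant in every library. It was 91.9, 98.6 and 89.3 TPM in WT c-kit-, 87.9, 104 and 93.2 TPM in WT c-kit+, and 129, 136 and 126 TPM in those labelled IRF7-/- c-kit+. The WT groups overlapped, and all 3 labelled libraries lay above all 6 others. The log2 fold change from WT c-kit- to WT c-kit+ was 0.03 (95% interval −0.17 to 0.22, limma adjusted p = 0.825). From WT c-kit+ to the labelled libraries Trp53 was 1.37-fold higher in TPM (log2 fold change 0.45, standard error 0.07, limma adjusted p = 0.00321), and against WT c-kit- it was 1.40-fold higher (log2 fold change 0.48, standard error 0.06, limma adjusted p = 0.000596).

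Mdm2, the E3 ligase that targets p53 and is itself a p53 target, went the other way. It was 69.7, 82.5 and 82.0 TPM in WT c-kit-, 76.97, 81.8 and 77.2 TPM in WT c-kit+, and 57.6, 63.8 and 57.3 TPM in those labelled IRF7-/- c-kit+. No labelled library reached the lowest of the 6 WT libraries, and the WT groups overlapped. The log2 fold change from WT c-kit+ to the labelled libraries was −0.40 (standard error 0.06, limma adjusted p = 0.00287), and against WT c-kit- the value was −0.38 (standard error 0.09, limma adjusted p = 0.00796). From WT c-kit- to WT c-kit+ it was 0.01 (95% interval −0.18 to 0.21, limma adjusted p = 0.903).

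Mdm4, a relative of Mdm2 that binds p53 and blocks its activity, varied least. It was 118, 111 and 109 TPM in WT c-kit-, 120, 118 and 115 TPM in WT c-kit+, and 127, 132 and 123 TPM in those labelled IRF7-/- c-kit+. The labelled libraries were the 3 highest, by a small margin. From WT c-kit+ to the labelled libraries the log2 fold change was 0.11 (95% interval −0.01 to 0.23, limma adjusted p = 0.116), and median-of-ratios scaling turned it to −0.02. Against WT c-kit- it was 0.18 (limma adjusted p = 0.0287), a call that was lost in 5 of 13 alternatives. Between the WT groups it was 0.07 (limma adjusted p = 0.368), and it passed under quantile normalization (0.26, limma adjusted p = 0.00912) and median-of-ratios scaling (0.18, limma adjusted p = 0.0403).

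Within a library, the balance of these genes can be written as a ratio, which a common factor for all genes of a library leaves as it is. The ratio of Mdm2 to Mdm4 in TPM was 0.591, 0.743 and 0.753 in WT c-kit-, 0.639, 0.691 and 0.670 in WT c-kit+, and 0.455, 0.482 and 0.465 in those labelled IRF7-/- c-kit+. The labelled libraries did not overlap with the others. The log2 difference was −0.51 from WT c-kit+ to the labelled libraries and −0.57 against WT c-kit- (two-sided exact permutation p = 0.1 each, the smallest this design allows), and −0.05 between the WT groups (two-sided exact permutation p = 0.7), where it became 0.01 without WT c-kit- replicate 3.

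The ratio of Mdm2 to Trp53, chosen after the values were seen, was 0.838 ± 0.0802 (SD, n = 3) in WT c-kit-, 0.830 ± 0.0457 in WT c-kit+ and 0.457 ± 0.0111 in the libraries labelled IRF7-/- c-kit+. The lowest WT library had a ratio of 0.758 and the highest labelled library 0.469. A ratio shows unequal change of its members, not which of them changed.

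**Figure D2:**
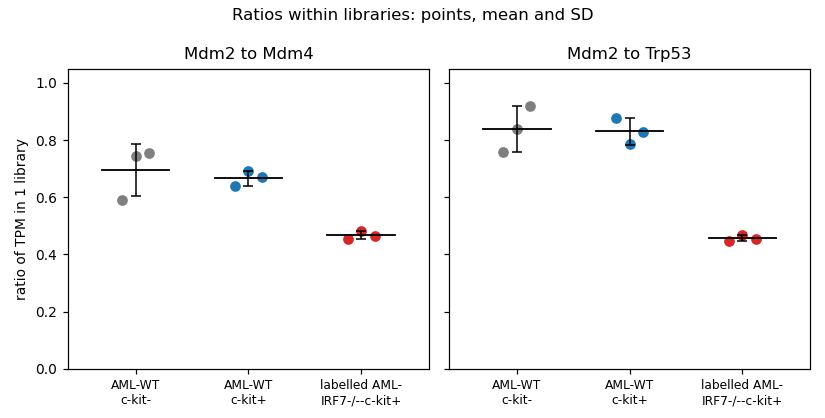
Ratio of Mdm2 to Mdm4 (left) and of Mdm2 to Trp53 (right) in TPM (vertical axis, from 0) for each library (points) with the mean and SD of 3 (black), by group. The 3 labelled libraries lie between 0.455 and 0.482 on the left and between 0.447 and 0.469 on the right, below all 6 WT libraries.

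Between the WT groups, the members that passed the test on TPM as deposited were lower in WT c-kit+. Of the 10 genes 9 were tested with limma, 0 were higher, also at an unadjusted p under 0.05, and 4 were lower, namely Ccng1, Sesn2, Zmat3 and Trp53inp1, and 1, Sesn2, also reached a size of 1 on the log2 scale. Over all 13261 genes tested, 14.0% were higher, 27.6% lower and 14.4% passed both thresholds. The median log2 fold change was −0.45 over the 9 genes and −0.08 over all genes tested. Zmat3 met the limit on low values through its WT c-kit- libraries alone, the group in which it is high. Phlda3 met it through its WT c-kit- libraries and replicate 2 of WT c-kit+, at 1.19 TPM. Of all genes that passed, 33.7% were higher in WT c-kit+, a share that was 54.0% after quantile normalization and 46.7% after median-of-ratios scaling, and the 4 genes were lower under both. Mdm4 passed as higher under both (0.26, limma adjusted p = 0.00912, and 0.18, limma adjusted p = 0.0403), so the count of 0 higher does not hold there. Between these groups 11 of 15 S phase genes were higher, and of the 20 myeloid maturation genes 5 were higher and 6 lower.

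Sesn2, a sestrin that restrains mTORC1 signalling under stress, had the largest log2 fold change of the 10 genes between the WT groups on the log2(TPM + 1) scale. It was 11.1, 11.1 and 10.4 TPM in WT c-kit-, and 3.75, 4.54 and 5.0 TPM in WT c-kit+. Every c-kit- library was more than 5 TPM above every c-kit+ library. The fold of the means was 2.45 and the log2 fold change −1.13 (standard error 0.12, limma adjusted p = 0.000527). The libraries labelled IRF7-/- c-kit+, at 4.26, 3.82 and 4.25 TPM, overlapped WT c-kit+ (log2 fold change −0.08, 95% interval −0.39 to 0.23, limma adjusted p = 0.630). They lay below WT c-kit- (log2 fold change −1.21, standard error 0.10, limma adjusted p = 0.000106).

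Ccng1, cyclin G1, was 39.4, 36.3 and 35.5 TPM in WT c-kit-, 26.7, 24.9 and 28.7 TPM in WT c-kit+, and 30.6, 36.7 and 33.1 TPM in those labelled IRF7-/- c-kit+. All WT c-kit+ libraries were below all others, and the outer groups overlapped. It fell between the WT groups (log2 fold change −0.45, standard error 0.08, limma adjusted p = 0.00443). From WT c-kit+ to the labelled libraries the log2 fold change was 0.31 (limma adjusted p = 0.0287), which lost its call in 8 of 13 alternatives. Over all 13 the limma adjusted p ran from 0.0165 to 0.150. Against WT c-kit- it was −0.15 (limma adjusted p = 0.187).

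Zmat3, which encodes an RNA-binding protein, and Phlda3, which encodes an inhibitor of Akt, were near the lower end of what the table resolves. Zmat3 was 1.84, 1.26 and 1.45 TPM in WT c-kit-, 0.30, 0.34 and 0.42 TPM in WT c-kit+, and 0.63, 0.72 and 0.62 TPM in those labelled IRF7-/- c-kit+. The 3 groups did not overlap. It fell between the WT groups (log2 fold change −0.89, standard error 0.16, limma adjusted p = 0.00435) and was lower in the labelled libraries than in WT c-kit- (−0.60, standard error 0.15, limma adjusted p = 0.0113). These values understate the change of so low a gene, and with a pseudocount of 0.1 they reached −1.83 and −1.08. The second call was lost without replicate 3 of the labelled libraries (limma adjusted p = 0.0505), and neither could be tested with a WT c-kit- library left out.

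Phlda3 was 2.38, 1.85 and 1.17 TPM in WT c-kit-, 0.45, 1.19 and 0.79 TPM in WT c-kit+, and 0.52, 0.76 and 0.67 TPM in those labelled IRF7-/- c-kit+. The WT groups overlapped by 1 library. The log2 fold change was −0.63 between the WT groups (limma adjusted p = 0.0737) and −0.74 from WT c-kit- to the labelled libraries (limma adjusted p = 0.0153). The first passed in the fit of all 9 libraries (limma adjusted p = 0.0389) and without WT c-kit- replicate 3 (−0.80, limma adjusted p = 0.0432). The second was lost without replicate 1 of the labelled libraries (limma adjusted p = 0.0602), and with a pseudocount of 0.1 the values were −1.09 and −1.30. Eda2r, a receptor of the TNF receptor family, was listed at 0.11 TPM in 1 WT c-kit- library and at 0 in the other 8.

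Trp53inp1, which encodes a nuclear protein that aids p53-dependent cell death and takes part in autophagy, changed most of the 10 genes. It was 20.6, 18.4 and 25.5 TPM in WT c-kit-, 12.5, 10.7 and 13.9 TPM in WT c-kit+, and 2.91, 3.24 and 3.32 TPM in those labelled IRF7-/- c-kit+. The 3 groups formed separate steps. It fell between the WT groups (log2 fold change −0.75, standard error 0.15, limma adjusted p = 0.00694). From WT c-kit+ to the labelled libraries the means differed 3.92-fold (log2 fold change −1.68, standard error 0.12, limma adjusted p = 0.000169). Against WT c-kit- they differed 6.81-fold (log2 fold change −2.43, standard error 0.14, limma adjusted p = 2.34e-05).

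Aen, a nuclease that aids DNA fragmentation in dying cells, was highest in the same libraries as Trp53 RNA. It was 21.7, 25.1 and 19.1 TPM in WT c-kit-, 20.4, 28.7 and 26.0 TPM in WT c-kit+, and 37.4, 35.8 and 34.7 TPM in those labelled IRF7-/- c-kit+. The labelled libraries lay above all 6 others, among which the groups overlapped. The log2 fold change was 0.52 against WT c-kit+ (standard error 0.12, limma adjusted p = 0.0134), 0.69 against WT c-kit- (standard error 0.11, limma adjusted p = 0.00145) and 0.17 between the WT groups (limma adjusted p = 0.403).

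Between the c-kit+ groups the 10 genes split in direction. In the libraries labelled IRF7-/- c-kit+, 7 of the 10 genes were tested, 3 were higher (Trp53, Ccng1 and Aen) and 2 lower (Mdm2 and Trp53inp1), and 1, Trp53inp1, passed both thresholds. Over all 13238 genes tested, 31.9% were higher, 16.1% lower and 11.7% passed both thresholds. The share of higher genes among all that passed was 66.4%, and it was 55.1% after quantile normalization and 49.6% after median-of-ratios scaling. The median of all genes lay at 0.12 on the log2 scale. Relative to it the change was 0.33 for Trp53, 0.40 for Aen, 0.19 for Ccng1, −0.52 for Mdm2 and −1.80 for Trp53inp1. Trp53, Aen, Mdm2 and Trp53inp1 held their direction and an adjusted p under 0.05 in each of 13 alternatives. Without replicate 1 of the labelled libraries 5 of the 10 genes passed as well, beside 35.5% of all genes in place of 48.0%. That library had the highest sum of interferon-stimulated genes. Replicates 2 and 3, at 317 and 416 TPM, were also above WT c-kit+ at 166 to 171 TPM. Between the same groups 18 of the 20 myeloid maturation genes were lower. Higher were 12 of 15 S phase genes and 11 of 13 interferon-stimulated genes tested. Ifit1, Rsad2, Usp18 and Rtp4 met the limit on low values through the labelled libraries alone, the group in which they are high. Of the maturation genes, Fpr1 and Cxcr2 met it through WT c-kit+ alone, where they are high. The part of these lists in the changes above was not tested.

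Against WT c-kit-, 9 of the 10 genes were tested, and the libraries labelled IRF7-/- c-kit+ had 3 higher (Trp53, Mdm4 and Aen) and 5 lower (Mdm2, Sesn2, Zmat3, Phlda3 and Trp53inp1). Zmat3 and Phlda3 were under 1 TPM in all labelled libraries and met the limit on low values through WT c-kit- alone, the group in which they are high. Sesn2 and Trp53inp1, 2 genes, passed both thresholds. Over all 13510 genes tested, 30.7% were higher, 28.7% lower and 20.3% passed both thresholds. This comparison shares a group with each of the others, and its own groups differ in both genotype label and c-kit. The 3 comparisons are therefore not independent.

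**Figure D3:**
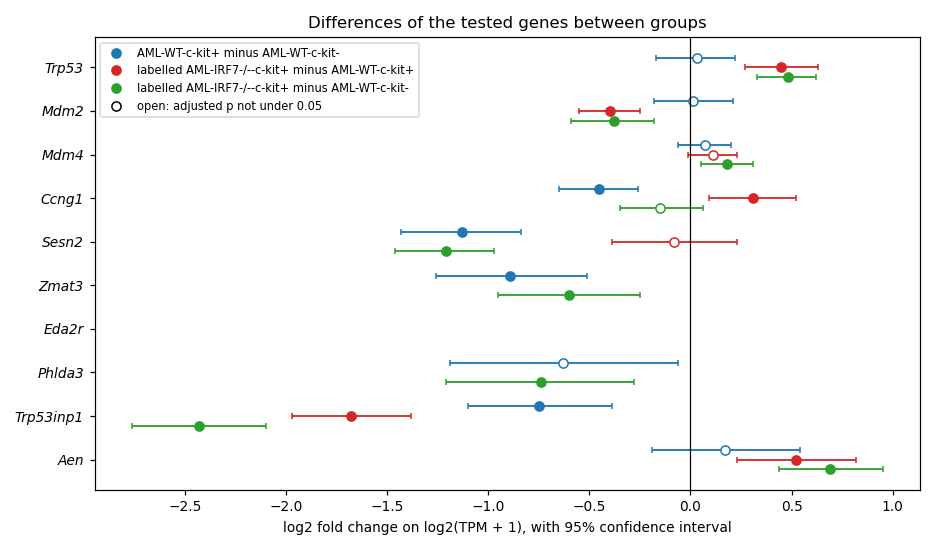
Log2 fold changes on log2(TPM + 1) with 95% confidence intervals (horizontal axis) of the tested genes (rows) in the 3 comparisons (colours). Filled points had an adjusted p under 0.05. Sesn2 differs from WT c-kit- in both c-kit+ groups, Trp53inp1 steps down to −2.43, and Trp53 and Aen lie right of 0 where Mdm2 lies left.

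A list of 48 further p53 targets, grouped by function, moved in both directions. Between the WT groups 9 were higher and 14 lower of 43 tested, with a median log2 fold change of −0.21 beside −0.08 over all genes. From WT c-kit+ to the libraries labelled IRF7-/- c-kit+ 9 were higher and 12 lower of 42 tested, with a median of 0.02 beside 0.12 over all genes. From WT c-kit- to the labelled libraries 11 were higher and 17 lower of 42 tested, with a median of −0.11 beside 0.03. The genes tested include Gls2, Pltp and Tnfrsf10b, which in some comparisons met the limit on low values only through their high group. Of the further targets tested, 53.5% passed between the WT groups, 21 of 42 between the c-kit+ groups and 66.7% against WT c-kit-, beside 41.6%, 48.0% and 59.4% of all genes. Over all genes the shares higher and lower were 14.0% and 27.6%, 31.9% and 16.1%, and 30.7% and 28.7%, and the counts of each function below are read beside these.

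Growth arrest genes had the lowest median of the 5 target lists between the c-kit+ groups. Of 9, 8 were tested there with limma, and 6 were lower and 0 higher, also at an unadjusted p under 0.05, in the libraries labelled IRF7-/- c-kit+ (median log2 fold change −1.23), where 31.9% of all genes were higher and 16.1% lower. Those lower were Cdkn1a, Btg2, Gadd45a, Plk3, Sfn and Btg1. Cdkn1a, which encodes the cyclin-dependent kinase inhibitor p21 and is the best known of p53 targets, was 65.8, 108 and 108 TPM in WT c-kit-, 32.6, 40.8 and 25.8 TPM in WT c-kit+, and 16.1, 17.3 and 18.9 TPM across the labelled libraries. It stepped down without overlap, as Trp53inp1 did. Its log2 fold change was −1.46 between the WT groups (standard error 0.24, limma adjusted p = 0.00305) and −0.86 between the c-kit+ groups (standard error 0.16, limma adjusted p = 0.00536).

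Btg2, an antiproliferative gene, varied widely among the WT libraries, from 97.3 to 250 TPM in WT c-kit- and from 43.5 to 157 TPM in WT c-kit+. It was 10.8, 8.53 and 13.2 TPM in the labelled libraries, below all of these (log2 fold change −2.82 against WT c-kit+, standard error 0.43, limma adjusted p = 0.00242). The WT groups overlapped (limma adjusted p = 0.178). Plk3, a stress-responsive kinase, had means of 14.6 and 1.62 TPM in WT c-kit+ and the labelled libraries (log2 fold change −2.51, limma adjusted p = 0.000548). Btg2, Plk3, Btg1 and Cdkn1a are also regulated independently of p53. Of 9 tested between the WT groups, Cdkn1a and Btg1 were lower and Sfn higher, and against WT c-kit- the labelled libraries had 1 higher and 5 lower of 8.

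Cell death genes were split. Between the c-kit+ groups 3 of 12 tested were higher and 3 lower in the labelled libraries. Bax, the pore-forming effector of mitochondrial cell death, was 132, 129 and 120 TPM in WT c-kit-, 60.5, 73.0 and 72.3 TPM in WT c-kit+, and 111, 104 and 116 TPM across the labelled libraries. It was thus lowest in WT c-kit+, with a log2 fold change of −0.89 between the WT groups (limma adjusted p = 0.000366) and 0.68 between the c-kit+ groups (limma adjusted p = 0.00129). Bbc3, which encodes the BH3-only protein Puma, was 22.4, 24.3 and 25.9 TPM in WT c-kit-, 8.19, 10.02 and 9.20 TPM in WT c-kit+, and 5.07, 3.88 and 4.67 TPM across the labelled libraries. It fell at both steps (log2 fold change −1.31, limma adjusted p = 0.000140, and −0.87, limma adjusted p = 0.00212).

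Pmaip1, which encodes the BH3-only protein Noxa, was 66.4, 202 and 225 TPM in WT c-kit- and 109, 143 and 49.2 TPM in WT c-kit+, with overlap. It was 31.8, 35.4 and 32.8 TPM in the labelled libraries (log2 fold change −1.44 against WT c-kit+, standard error 0.36, limma adjusted p = 0.0159). Trp53i11 rose from a mean of 2.14 TPM in WT c-kit- to 5.67 TPM in WT c-kit+ (limma adjusted p = 0.0375) and was 0.77 TPM in the labelled libraries (log2 fold change −1.92, limma adjusted p = 0.000996). Fas and Siva1 were higher in the labelled libraries than in WT c-kit+. Among 11 death genes tested between the WT groups 2 were higher and 5 lower. Against WT c-kit- the labelled libraries had 3 higher and 5 lower of 12. Of these 12, Tnfrsf10b met the limit on low values through the labelled libraries alone, the group in which it is high.

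Of 9 DNA repair and replication genes, all tested, 3 were higher and 1 lower between the c-kit+ groups, 4 and 2 between the WT groups, and 5 and 2 between the labelled libraries and WT c-kit-. Xpc, a sensor of DNA damage in nucleotide excision repair, was 45.0, 44.4 and 41.2 TPM in WT c-kit-, 71.1, 71.3 and 70.8 TPM in WT c-kit+, and 116, 120 and 119 TPM across the labelled libraries. It rose at both steps (log2 fold change 0.70, limma adjusted p = 0.000174, and 0.73, limma adjusted p = 9.48e-05), the reverse of Cdkn1a and Trp53inp1. Ddb2, a partner in the same repair pathway, rose between the WT groups (log2 fold change 0.73, limma adjusted p = 0.000861) and was lower in the labelled libraries than in WT c-kit+ (−0.99, limma adjusted p = 0.000779). Ercc5, a nuclease of that pathway, fell between the WT groups (−0.98, limma adjusted p = 0.00321).

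Among 14 targets in metabolism and stress, 3 of 10 tested were higher and 2 lower between the c-kit+ groups. Between the WT groups 2 of 11 were higher and 3 lower. Against WT c-kit- the labelled libraries had 2 of 10 higher and 3 lower. Between the WT groups Gls2 met the limit on low values through WT c-kit+ alone, the group in which it is high. Pltp met it through WT c-kit- alone, where it is high, both there and against the labelled libraries. Tigar, a phosphatase that lowers glycolytic flux, was 8.56, 10.2 and 9.33 TPM in WT c-kit+ and 19.9, 22.3 and 22.5 TPM across the labelled libraries (log2 fold change 1.12, standard error 0.10, limma adjusted p = 0.000293). Sesn1, a relative of Sesn2, fell between the WT groups from a mean of 30.1 to 16.2 TPM (log2 fold change −0.85, limma adjusted p = 0.000457). Dram1, a lysosomal regulator of autophagy, rose there (0.98, limma adjusted p = 0.00467) and was lower in the labelled libraries than in WT c-kit+ (−0.78, limma adjusted p = 0.00693). Ddit4, an inhibitor of mTORC1, had means of 26.9, 12.1 and 6.82 TPM in the 3 groups, and the labelled libraries were lower than WT c-kit- (−1.72, limma adjusted p = 0.00609).

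The remaining 3 targets feed back on p53. Rchy1, which encodes the E3 ligase Pirh2, fell from a mean of 66.2 TPM in WT c-kit- to 28.9 TPM in WT c-kit+ (log2 fold change −1.17, limma adjusted p = 3.15e-05) and was 29.4 TPM in the labelled libraries. Cop1, another E3 ligase for p53, was lower in both c-kit+ groups than in WT c-kit- (−0.36, limma adjusted p = 0.00991, and −0.58, limma adjusted p = 0.00820). Between the c-kit+ groups 0 of the 3 passed the limma test, also at an unadjusted p under 0.05.

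**Figure D4:**
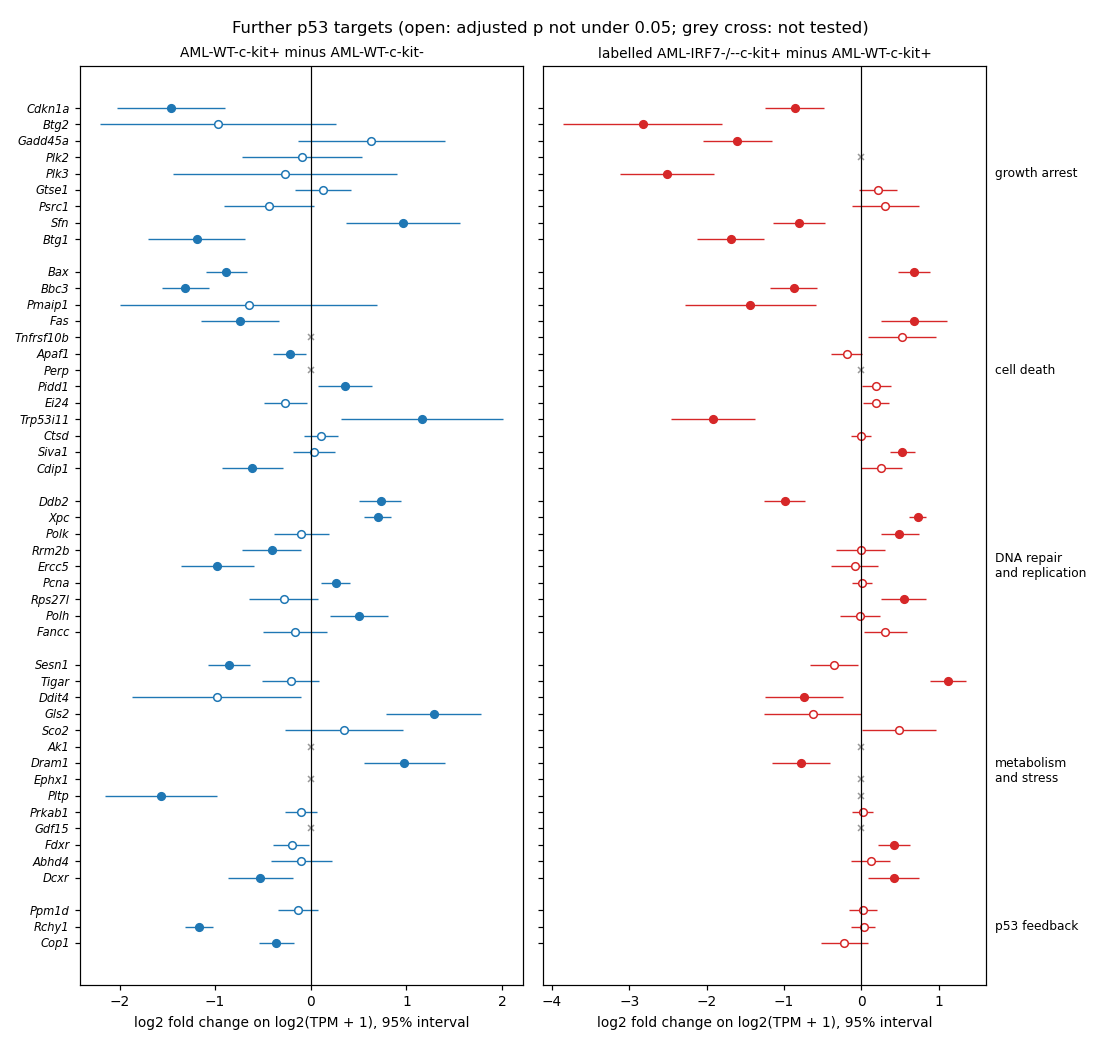
Log2 fold changes on log2(TPM + 1) with 95% confidence intervals (horizontal axes, with different ranges) of 48 further p53 targets (rows, by function) between the WT groups (left) and between the c-kit+ groups (right). Filled points had an adjusted p under 0.05 and grey crosses mark genes not tested. In the right panel 6 growth arrest genes lie left of 0 at −0.81 to −2.82, while death and repair genes lie on both sides.

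Of 30 upstream regulators and cofactors of p53, 27 were tested. Between the WT groups 3 were higher and 5 lower, and between the c-kit+ groups 10 were higher and 5 lower in the labelled libraries. Against WT c-kit- the labelled libraries had 10 higher and 10 lower. The shares that passed were 29.6%, 55.6% and 74.1% of the regulators tested, beside 41.6%, 48.0% and 59.4% of all genes. Without replicate 1 of the labelled libraries the number that passed between the c-kit+ groups was 9 in place of 15. The share of all genes that passed also fell there, to 35.5% from 48.0%. The relatives Trp63 and Trp73 were not tested, being under the limit on low values.

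Ube4b, a ubiquitin ligase that acts on p53 together with Mdm2, was 51.7, 53.5 and 48.0 TPM in WT c-kit+ and 150, 117 and 155 TPM across the labelled libraries. This was the largest change of the regulators between these groups (log2 fold change 1.44, standard error 0.11, limma adjusted p = 0.000216), and WT c-kit- was close to WT c-kit+ at 49.2 to 56.3 TPM. Cdkn2a, whose product Arf inhibits Mdm2 and whose other product inhibits cyclin-dependent kinases, was 17.0, 17.7 and 10.1 TPM in WT c-kit-, 9.49, 6.08 and 9.98 TPM in WT c-kit+, and 3.70, 5.22 and 5.57 TPM across the labelled libraries. The table does not separate its products. Its log2 fold change was −0.70 between the c-kit+ groups (limma adjusted p = 0.0337), −1.43 against WT c-kit- (limma adjusted p = 0.00214) and −0.73 between the WT groups (limma adjusted p = 0.0600).

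Among the kinases that signal DNA damage to p53, Atm rose between the c-kit+ groups from a mean of 9.07 to 14.8 TPM (log2 fold change 0.65, limma adjusted p = 0.00717), and Atr, Chek1 and Prkdc passed in the same direction with log2 fold changes of 0.39, 0.45 and 0.51. Chek2 had means of 35.4 TPM in WT c-kit+ and 32.5 TPM in the labelled libraries, with overlap (−0.12, limma adjusted p = 0.177). Rpl5, a ribosomal protein that binds Mdm2, rose from 333 to 507 TPM (0.61, limma adjusted p = 0.00175), as did Rpl11 (0.34, limma adjusted p = 0.0272) and Npm1 (0.48, limma adjusted p = 0.00822). The median of all genes at 0.12 is part of each of these values. Between the WT groups the acetyltransferases Ep300 and Crebbp, which are p53 coactivators, were lower in WT c-kit+ (−0.58, limma adjusted p = 0.00283, and −0.55, limma adjusted p = 0.00280). So were Trp53bp2, which encodes the cofactor ASPP2 (−0.82, limma adjusted p = 0.00109), and Trim24 (−0.55, limma adjusted p = 0.00889). Trp53bp2 (−1.17, limma adjusted p = 0.000400) and Ppp1r13b, which encodes ASPP1 (−0.96, limma adjusted p = 0.00293), were lower in the labelled libraries than in WT c-kit-.

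Genes with a pattern like that of Trp53inp1, the gene of widest range, were sought over the 9 libraries among 10284 genes with a mean of at least 5 TPM. Likeness was the root mean square distance of log2(TPM + 1) after each gene's mean was removed. The nearest were Pik3r5 (0.10), Stk17b (0.18), Apobr (0.20), A530040E14Rik (0.20) and Smox (0.23). Pik3r5, a regulatory subunit of phosphoinositide 3-kinase gamma, had means of 40.6, 25.3 and 6.78 TPM in WT c-kit-, WT c-kit+ and the labelled libraries. Stk17b, a kinase, had means of 76.9, 39.6 and 14.3 TPM. None of the 5 is in the p53 lists used here.

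**Figure D5:**
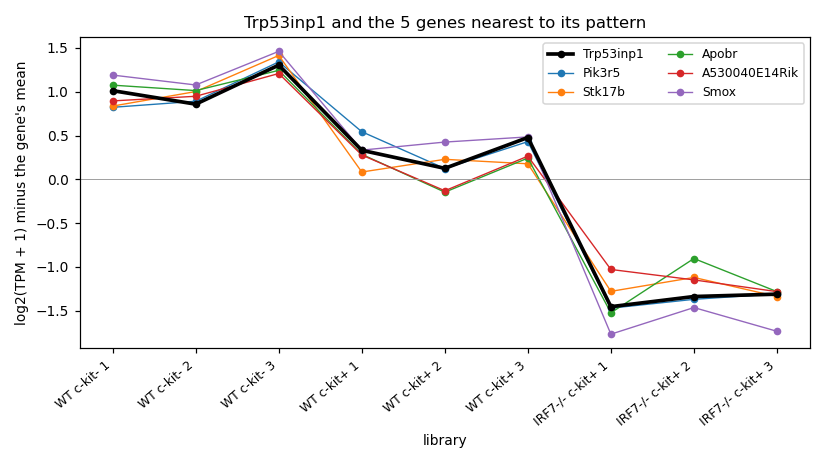
Log2(TPM + 1) minus each gene's mean (vertical axis) over the 9 libraries (horizontal axis) for Trp53inp1 (thick black line) and the 5 genes nearest to it (thin coloured lines). All 6 lines step down from WT c-kit- to WT c-kit+ and again to the labelled libraries.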

How the data were processed

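Libraries were made with the TruSeq RNA v2 kit and, per the labels, sequenced, while the methods of the paper name a microarray. The authors deposited 1 table of TPM per gene. The aligner, genome build and filters are not given in the sources used here, and TPM keep no read depth, so the spread of 3 libraries alone gives the precision. Of 55536 gene IDs, 55450 matched GENCODE M21. limma 3.58.1 (R 4.3.3, lmFit and eBayes with trend) was run on log2(TPM + 1) of genes that reached 1 TPM in 3 or more of the 6 libraries of each pair of groups, with Benjamini-Hochberg adjustment, and was tested on simulated data. Both thresholds means an adjusted p under 0.05 and a change of 1 or more, in either direction, on the log2 scale. Python 3.11.15 read the table. The members and lists were chosen with earlier results of these data known. Named genes were the 10 members, in each comparison the 2 largest changes of each target list and the 4 of the regulators (at least 5 TPM in the higher group), and Cdkn1a, Bax, Cdkn2a, Irf7 and Kit. Other genes were named after their values were seen. Alternatives were a pseudocount of 0.1, no filter, a filter of 5 TPM, quantile normalization, median-of-ratios scaling, 1 fit of all 9 libraries, the replicate number as a block, and each library left out.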

Additional observations from a re-analysis of the deposited data

How the results depend on the processing

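Of 311 values of single genes and alternatives, 287 kept direction and side of the threshold, 15 lost the call, 4 gained it and 5 changed sign. The changes of sign were Trp53 between the WT groups (−0.04 to 0.08 with each library left out, −0.01 without WT c-kit- replicate 3, −0.04 without WT c-kit+ replicate 2), Mdm2 there (−0.06 to 0.06, −0.06 without WT c-kit- replicate 1, −0.01 without WT c-kit+ replicate 2) and Mdm4 between the c-kit+ groups (−0.02 with median-of-ratios scaling). The log2 ratio of Mdm2 to Mdm4 between the WT groups ran from −0.17 to 0.01 with each library left out, and that of Mdm2 to Trp53 from −0.08 to 0.06, being 0.03 without WT c-kit+ replicate 2 and 0.06 without WT c-kit- replicate 3. Members past both thresholds were 2 with a pseudocount of 0.1 and 0 with quantile normalization, in place of 1, between the WT groups, where Sesn2 reached −0.97 under the latter. They were 4 in place of 2 with a pseudocount of 0.1 from WT c-kit- to the labelled libraries. With each library left out, regulators that passed were 5 to 11 between the WT groups (8 with all libraries, 5 without WT c-kit+ replicate 1) and 9 to 14 between the c-kit+ groups (15 with all). The shares of all genes that passed in these fits were 32.5% to 38.2% (41.6% with all libraries) and 35.5% to 46.1% (48.0% with all). Members that passed from WT c-kit- to the labelled libraries were 5 to 7 (8 with all libraries, 5 without WT c-kit- replicate 2 or 3), since Zmat3 and Phlda3 then miss the limit on low values and Mdm4 loses its call. The share of all genes that passed in this comparison was 49.4% to 54.5% with each library left out (59.4% with all). The deviations of same-numbered libraries had correlations of −0.0712 to 0.237, and those of different-numbered libraries −0.184 to 0.144. In both comparisons with the labelled libraries the same-numbered values were all positive, at 0.0187 to 0.0968. These values do not settle whether equal numbers mark pairs, and the main fits did not take them as pairs. With the replicate number as a block, the only member to lose its call was Ccng1 between the c-kit+ groups (limma adjusted p = 0.0601). Of all genes, the block fit called 5826 there in place of 6357.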
